A study of Mus musculus with 4 samples.

Results

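MicroRNA miR-218 is made in the mouse from gene copies in introns of Slit2 and Slit3, and both copies were present in a small RNA sequencing table of embryonic stem cells (ESCs) and embryoid bodies (EBs). The members were the table entries named mir-218-1 and mir-218-2, which are 2 of its 626 microRNA gene entries. They were chosen by their counts: an earlier reading of the same table had shown them higher in the EB columns. Their ESC to EB difference is therefore given below as a description, with no test.

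All samples came from CGR8, a feeder-independent mouse embryonic stem cell line, labelled with the background strain C57BL/6 and the donor strain 129P2/OlaHsd and with 1 passage range for all. The ESC group, labelled day 0, grew in medium with leukemia inhibitory factor (LIF), which holds the cells undifferentiated, at 100 U/ml and with 10% serum. The EB group, labelled day 8, was grown without LIF in 20% serum, as hanging drops of 1000 cells for 2 days and then in suspension for 6 days. EBs are aggregates in which cells of several lineages arise side by side, so the line, the absence of feeder cells and the mixture of cell types limit what the groups stand for. Each group had 2 columns of counts, and the comparison set the stem cells against the aggregates.

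Slit2 and Slit3 encode secreted ligands of the Robo receptors, which steer growing axons and migrating cells and also act in vessel and heart development. A microRNA in an intron can be cut from the transcript of its host. The microRNA miR-218 is known to target Robo1, the receptor of its hosts' products. In the mouse embryo miR-218 is known as a microRNA of motor neurons, where it represses genes of other neuron types, and it has also been studied in heart, vessels and bone-forming mesenchyme.

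The hairpins are shown because they decide what the counts can tell apart. The entry mir-218-1 spans chr5:48223942-48224051 on the plus strand and mir-218-2 spans chr11:35616816-35616925 on the plus strand (RefSeq sequences, GRCm38.p6). Capitals mark the 5p arm.
mir-218-1: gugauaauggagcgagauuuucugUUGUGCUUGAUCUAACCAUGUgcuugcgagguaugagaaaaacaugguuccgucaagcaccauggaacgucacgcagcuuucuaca
mir-218-2: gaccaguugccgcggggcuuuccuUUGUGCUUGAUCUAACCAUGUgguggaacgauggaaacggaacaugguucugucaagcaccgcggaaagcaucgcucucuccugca
Each hairpin is 110 bases long, and 71 positions hold the same base in both. The longest stretch without a difference is 22 bases, starts at base 25 of each hairpin and holds the whole 5p arm. Reads of that arm therefore carry nothing that assigns them to 1 gene.

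The mature arms are shown with the seed, bases 2 to 8 from the 5′ end, in capitals, since the seed largely sets which messenger RNAs a microRNA binds.
miR-218-5p, from both genes: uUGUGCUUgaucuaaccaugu
miR-218-1-3p: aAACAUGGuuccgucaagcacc
miR-218-2-3p: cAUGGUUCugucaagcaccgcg
The 3p arms overlap over 19 bases with 1 mismatch, C12U counted from the 5′ end of miR-218-1-3p, and they start 3 bases apart, so their seeds differ. Among 1738 mouse mature sequences in the RefSeq table, the 5p seed was shared by 1 product of another gene, miR-7002-3p, which was not matched to an entry of the count table. Of the entries with a RefSeq match, none outside miR-218 shared any of the 3 seeds. The closest of 1003 other hairpins, among them that of mir-103-2, still had 4 mismatches to a miR-218 hairpin over the best window of 20 bases.

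The positions of the genes within their hosts run in parallel. In GENCODE M21 (GRCm38), Slit2 spans 47983138 to 48307733 on chromosome 5 and mir-218-1 starts 240.8 kb from its 5′ end. Slit3 spans 35121224 to 35708507 on chromosome 11 and mir-218-2 starts 495.6 kb from its 5′ end. In the longest protein-coding transcript of each host, both with 36 exons, the microRNA lay in intron 14, on the strand of the host. This intron is 4.57 kb long in Slit2 and 9.57 kb in Slit3. Neither hairpin overlapped an exon of any annotated protein-coding transcript of its host, of which Slit2 had 5 and Slit3 had 1. These 2 were the only entries of the table placed within Slit1, Slit2 or Slit3. Host messenger RNA was not measured, so the levels below say nothing of how the hosts behaved.

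The libraries were unequal in depth. The total microRNA count was 557250 and 557643 in the ESC columns and 139104 and 139360 in the EB columns, a ratio of 4.0 between the group means. Within each group the columns were closer than sampling noise allows for separate libraries, with a chi-square per degree of freedom of 0.235 over 402 entries for ESCs and 0.284 over 344 entries for EBs, where independent libraries would give about 1. Each group was therefore counted as 1 sample by the mean of its columns. There is no replicate check, and all intervals below are at 95% and cover counting error only. Of the markers, the 6 ES cell microRNAs of the miR-290 to miR-295 cluster took 52.0% to 53.0% of every column. This sum hides opposite moves: by 2-fold or more, 1 of the 6 was higher in the EB library and 4 were lower. The entry mir-294 had 29323 and 29331 counts in the ESC columns and 36579 and 36578 in the EB columns. The entry mir-293 had 139000 and 139012 in the ESC columns and 19265 and 19255 in the EB columns. The 5 entries of the miR-302 and miR-367 cluster took at most 0.0344% of the ESC and at least 6.53% of the EB columns. The 9 neuronal entries took 0.999% to 1.00% of ESC and 0.198% of EB counts.

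Both copies were detected in the ESCs and stood higher in the EBs. The entry mir-218-1 had 85 and 84 counts in the ESC columns and 150 and 151 in the EB columns. The entry mir-218-2 had 81 and 82 counts in the ESC columns and 150 and 149 in the EB columns. For each copy the counts were higher in the EB columns, although the EB libraries were shallower. Within a group the columns were a few counts apart at most. The unscaled EB to ESC ratio of mean counts was 1.78 for mir-218-1 and 1.83 for mir-218-2, so most of the scaled difference below comes from the correction for depth.

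Levels are given as CPM, the count scaled to a common library total. The level of mir-218-1 was 153 CPM in ESC replicate 1 (exact Clopper-Pearson interval 122 to 189) and 1078 in EB replicate 1 (913 to 1265). The level of mir-218-2 was 145 CPM in ESC replicate 1 (115 to 181) and 1078 in EB replicate 1 (913 to 1265). The second columns were at 151 and 147 CPM for the ESCs and at 1084 and 1069 for the EBs. The intervals of the copies overlapped within every column. The floor of 3 counts corresponded to 5.38 CPM in ESC replicate 1 and 21.6 in EB replicate 1, far below either copy. In bulk samples, more cells that make miR-218 and more miR-218 per cell cannot be told apart.

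**Figure D1:**
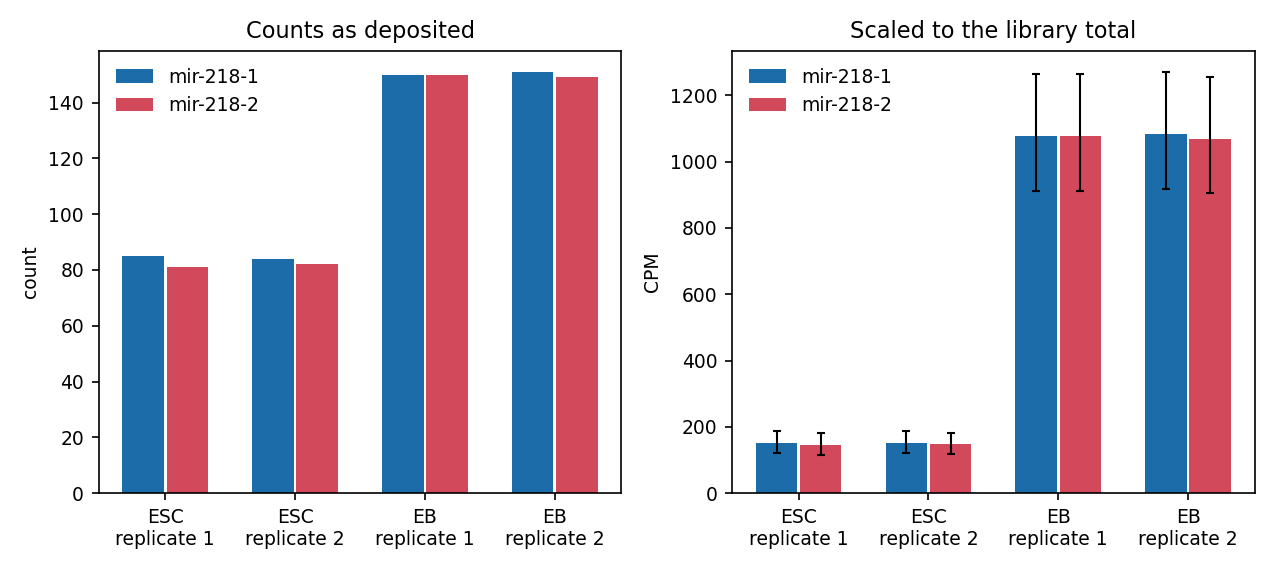
Counts of mir-218-1 and mir-218-2 in the 4 columns (left) and the same counts scaled to the column's total microRNA count, as CPM (right). Lines on the right are exact 95% binomial intervals; the ESC bars stand at 145 to 153 CPM and the EB bars at 1069 to 1084.

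TMM, which scales libraries by a trimmed mean of their log ratios, was used for folds. After it, mir-218-1 was 5.86-fold higher in the EB library (exact conditional binomial interval 4.46 to 7.74), a log2 fold of 2.55. The entry mir-218-2 was 6.04-fold higher (4.58 to 8.01), a log2 fold of 2.59. With library totals in place of TMM the folds were 7.13 (5.43 to 9.42) and 7.34 (5.57 to 9.74). In the authors' deposited normalized signal, mir-218-1 stood at 60.5 in both ESC columns and at 420.75 and 425.25 in the EB columns, and mir-218-2 at 58.5 in both ESC columns and at 425.25 and 420.75. The direction was the same in that signal, at log2 folds of 2.81 and 2.85. TMM set every log2 fold 0.28 lower than library totals would. A fold of at least 2 upward was common, at 123 (33.5%) of the entries with enough counts to be measured, while 111 (30.2%) fell at least as far and 133 lay between, so the members' place on that side is not particular to them. A fold of at least 4 upward was found in 73 entries (19.9%) and one downward in 46 (12.5%). The members ranked 58 and 56 by fold, and 55 entries lay above both. The median log2 fold of all measured entries was 0.07.

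**Figure D2:**
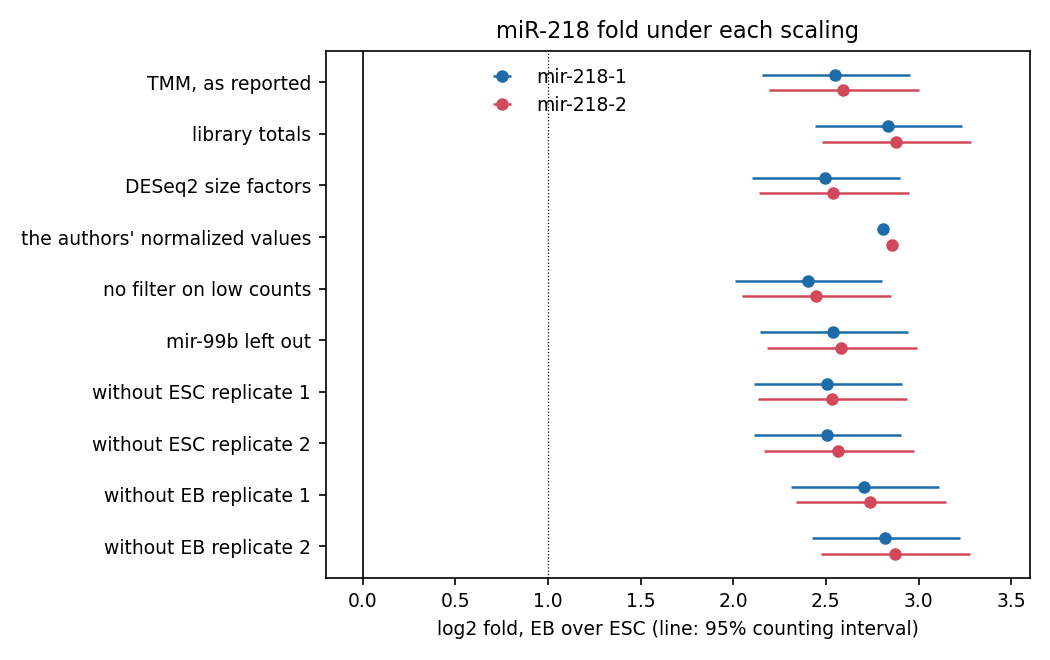
Log2 fold of the copies, EB over ESC, with TMM as reported and under each alternative, with 95% counting intervals where counts were used; the dotted line marks 2-fold. The values lie between 2.40 and 2.88, and every interval stays above 2-fold.

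In the order of levels, the copies stood higher in the EB columns than in the ESC columns. Of 626 entries, 565 had counts in each ESC column and 492 in each EB column. By count, mir-218-1 stood at rank 192 and 193 in the ESC columns and mir-218-2 at 194 and 195. In the EB columns mir-218-1 stood at rank 81 and 82 and mir-218-2 at 81 and 83. Next to them in the ESC mean order were mir-374b and mir-323 just above, at mean counts of 86 and 85, and let-7a-1 and mir-139 just below, at 81 and 79. In the EB order mir-425 and mir-376c stood just above, at 155 and 152, and mir-25 and mir-378a just below, at 147 and 144. None of these neighbours was separated from the copies by its counting interval. Where each microRNA's numbered copies were summed, miR-218 stood at rank 50 in the EB library.

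The counts of the copies could not be told from equal. The ratio of mir-218-1 to mir-218-2 was 1.04 in the ESC library (exact interval 0.756 to 1.42) and 1.01 in the EB library (0.797 to 1.27). The squared difference over the sum, which averages about 1 when each copy is counted from its own reads at equal levels, was 0.0542 in ESCs and 0.00333 in EBs. How reads that match several genes were counted is not stated in the sources used here. Whether the table holds each 5p read once or once per gene, and therefore how much each gene contributed, was not tested. The sum over the copies may count the same reads again.

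This near equality was shared with most other duplicated microRNA genes. Besides miR-218, 21 pairs of measured copies share 1 mature sequence in RefSeq. In 14 of them the copies' log2 folds differed by less than 0.25, against a difference of 0.04 for miR-218, and 6 pairs were closer than that. The squared difference over the sum was at most 1 in 15 of the 21 in the ESC library and in 19 in the EB library. Most pairs counted from their own reads at equal levels would also fall at or below 1. These counts therefore do not show how shared reads were counted. Over all 185 pairs of numbered copies, the most abundant pairs were mir-16-1 with mir-16-2, of a family known to restrain the cell cycle, mir-19b-1 with mir-19b-2, of the growth-linked miR-17-92 clusters, and mir-103-1 with mir-103-2, hosted by Pank genes. Their ESC ratios were 0.990, 1.04 and 1.00. Numbered copies could also differ widely: mir-466f-3 and mir-466f-4 had 101 and 8.5 mean counts in the EB library, and mir-297a-1 had 10.5 where mir-297a-3 had 76 and mir-297a-4 had 76.5. These are among 159 of the 185 pairs without a RefSeq match for both copies. Whether they share a mature sequence was therefore not checked. Among pairs that share 1 mature sequence, the neural pair mir-129-1 and mir-129-2 was farthest apart, named after its values were seen. The mean counts were 36.5 and 24.5 in ESCs and 2.5 and 12.5 in EBs, and the log2 folds were -2.15 and 0.75.

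**Figure D3:**
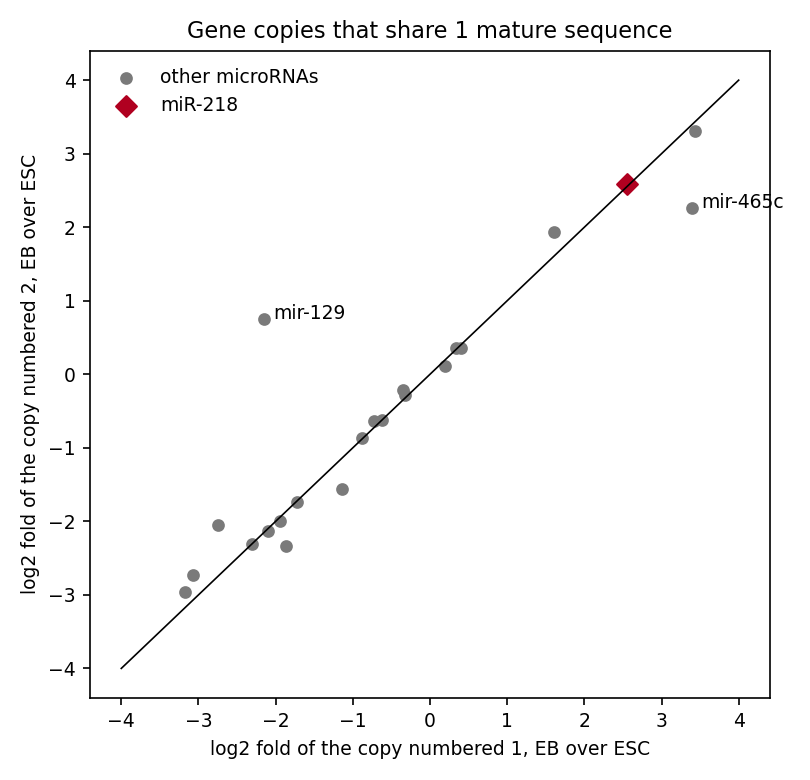
Log2 fold, EB over ESC, of the copy numbered 1 against that of the copy numbered 2, for 22 pairs of gene copies that share 1 mature sequence. The miR-218 pair, at 2.55 and 2.59, lies on the line of equality with most pairs, and mir-129 at -2.15 and 0.75 lies off it.

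Other microRNAs known from neurons mostly went the other way. The list held 30 names besides miR-218, of which 25 were in the table and 21 measured. Past 2-fold, 2 of these were higher in the EB library and 13 lower, and the other 6 lay between. Numbered copies count as separate entries here, and with copies summed 1 microRNA was higher and 6 lower. With copies summed over the whole table, 302 microRNAs passed the filter on low counts, of which 100 were higher and 87 lower. The median log2 fold of the 21 entries was -1.89 against 0.07 over all measured entries, of which 33.5% were higher and 30.2% lower. The list took 2.67% of ESC and 1.06% of EB counts. Both higher entries, mir-135a-1 and mir-135a-2, rested on 6 or 7 counts in each ESC column and 6 to 8 in each EB column. They passed the filter on low counts through the EB columns alone. Their log2 folds were 1.61 (-0.18 to 3.38) and 1.94 (0.14 to 3.79), and without either ESC column they had too few counts to be measured. Scaled by library totals, 3 entries passed 2-fold upward.

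The microRNAs of neuronal differentiation were among the lower ones. The copies of miR-124, a microRNA enriched in neurons, had mean counts of 1682 to 1687 in ESCs and 77 to 82 in EBs, at log2 folds of -2.66, -2.64 and -2.73 for mir-124-1, mir-124-2 and mir-124-3. The copies of miR-9, which acts in neural progenitors, fell from mean counts of 91.5 to 97.5 to counts of 6.5 to 8, at log2 folds of -2.10, -1.89 and -1.89 for mir-9-1, mir-9-2 and mir-9-3. For miR-7a, known from neuroendocrine cells, the log2 folds were -1.94 (-2.12 to -1.77) for mir-7a-1 and -2.0 (-2.18 to -1.82) for mir-7a-2. The entries mir-128-1 and mir-128-2, of a microRNA of postmitotic neurons, stood at -2.74 (-4.30 to -1.53) and -2.05 (-3.26 to -1.05). Each of these microRNAs had more counts than miR-218 in ESCs, although the miR-9 copies were close to the 84.5 and 81.5 mean counts of miR-218. In EBs miR-124 had fewer counts than miR-218, at 150.5 and 149.5, and miR-9 and miR-128 had far fewer. There mir-7a-1 and mir-7a-2 had more, at 292.5 and 281.5.

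The remaining neural entries were low or near no change. The entry mir-219a-1, of an oligodendrocyte microRNA, had 22 mean counts in ESCs and 1 in EBs, a log2 fold of -2.74 (-8.11 to -0.11). The entry mir-184 had 18 and 2, a log2 fold of -1.45 (-4.60 to 0.61) with an interval that included 0. Both are among the entries counted as lower. The log2 folds of mir-132, mir-7b, mir-138-1 and mir-138-2 were -0.60, -0.55, -0.35 and -0.21, each with an interval that included 0. The entry mir-135b was at 0.22 (0.08 to 0.37) on 1477 and 524.5 mean counts.

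**Figure D4:**
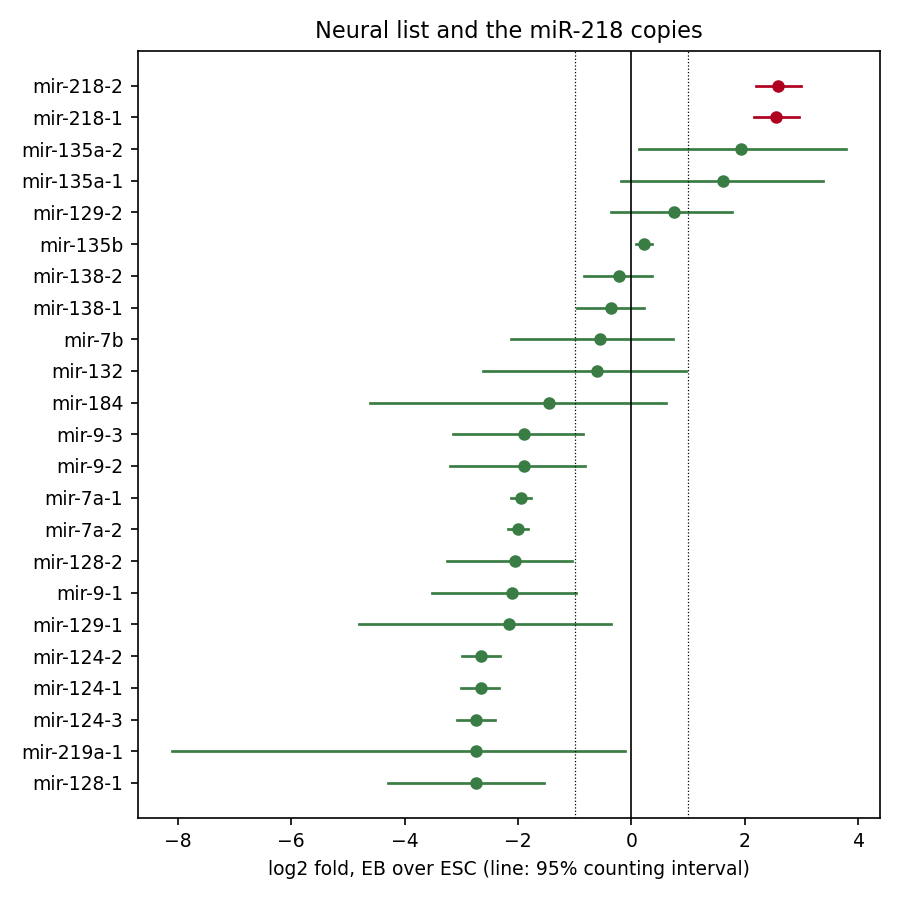
Log2 fold, EB over ESC, with 95% counting intervals for the 21 measured neural entries and the miR-218 copies; dotted lines mark 2-fold either way. The miR-218 copies are at 2.55 and 2.59, above the point values of all 21, of which 13 lie at or below -1. The intervals of mir-135a-1 and mir-135a-2 include both miR-218 values.

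MicroRNAs linked to motor neurons, spinal cord and hindbrain were also mostly lower, counted by entry. Of 14 measured entries, 10 fell at least 2-fold in the EB library and 2 rose as far, and the median log2 fold was -1.89. Over all measured entries 30.2% were lower, 33.5% higher and the median was 0.07. The list's share of all counts went the other way, from 2.75% in ESCs to 3.76% in EBs. The miR-9 and miR-124 copies already described make up 6 of the 14. The higher ones were mir-17 and mir-20a, at 2.11-fold (2.01 to 2.21) and 2.21-fold (2.08 to 2.34), which also mark proliferating cells. With no filter on low counts neither reached 2-fold. The Hox-linked mir-10b had 74 and 66 counts in the ESC columns and 1 in each EB column, and mir-196a-1 and mir-196a-2 were at log2 folds of 0.34 and 0.36 with intervals that included 0.

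MicroRNAs of heart, vessels and mesenchyme, the other tissues in which miR-218 has been studied, were not higher as a group. None of 12 measured entries reached 2-fold upward and 6 reached it downward, and the median log2 fold was -0.94, against 33.5% higher, 30.2% lower and a median of 0.07 over all measured entries. The most abundant were mir-21a, 2.32-fold lower (2.15 to 2.49), mir-34a, 2.41-fold lower (2.20 to 2.64), the endothelial mir-126a, 1.14-fold higher (1.03 to 1.27), and the smooth muscle mir-145a, 7.44-fold lower (5.46 to 10.4). Markers of cardiac and skeletal muscle summed to 12 counts in each ESC column and 5 in each EB column, so a difference there was not detectable at this depth. The blood markers took 0.258% and 0.259% of the ESC columns and 0.131% and 0.136% of the EB columns. Of their 3 measured entries, the lymphoid mir-150 went from 1331 and 1343 counts to 34 in both EB columns, while mir-142a and mir-155 were higher, at log2 folds of 2.65 (2.21 to 3.11) and 1.52 (0.72 to 2.31). The endothelial marker took 0.249% and 0.25% against 0.350% and 0.344%. Whether the makeup of the aggregates bears on miR-218 was not tested.

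The entries most like miR-218 in level in both libraries were mir-466g, mir-34c, mir-142a, mir-152, mir-205 and mir-466d, by Euclidean distance in log2 TMM-scaled CPM over the 2 libraries. Their distances were 0.37 to 0.52 among 362 entries compared, whereas the miR-218 copies lay 0.05 apart. The rodent repeat-cluster entries mir-466g and mir-466d, both within Sfmbt2, were 4.41-fold (3.41 to 5.72) and 4.75-fold higher (3.73 to 6.07). The p53-linked mir-34c was 4.35-fold higher (3.26 to 5.81), from 87 counts in both ESC columns to 115 in both EB columns. The blood-enriched mir-142a was 6.28-fold higher (4.61 to 8.61). The entry mir-152, within Copz2, was 7.20-fold higher (5.61 to 9.31). The epithelial mir-205 was 9.48-fold higher (7.16 to 12.7), with 64 and 72 counts in the ESC columns and 191 and 201 in the EB columns. With 2 libraries this likeness rests on 2 numbers per entry.

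**Figure D5:**
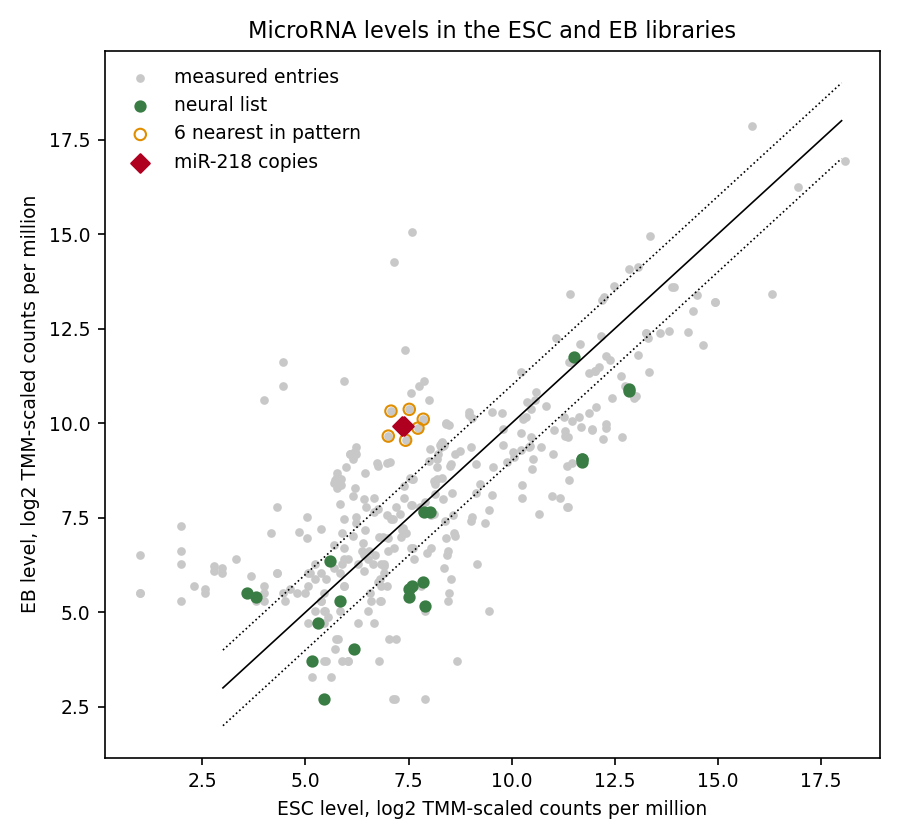
Level of each measured entry in the ESC library (x axis) and the EB library (y axis), in log2 TMM-scaled CPM, without entries at 0 in a library; the solid line marks equality and the dotted lines 2-fold. The miR-218 copies lie above the upper dotted line with their 6 nearest entries, and 13 of the 21 neural entries lie below the lower one.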

How the data were processed

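Small RNA of CGR8 cells was extracted with a microRNA kit, ligated, amplified by PCR and sequenced on an Ion Torrent PGM, per the labels' protocols. The protocols mention no molecular identifiers, so a read may be a PCR copy. The aligner, counter, build and microRNA release are not stated in the sources used here. The authors deposited whole-number counts with no normalization and a normalized signal, per the file headers; all 4 signal columns held the same set of values, as quantile normalization gives.

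Counts from mir-664 on (170 rows) sat 1 row too low and were moved up. This left mir-99b blank; of 7280 candidate sets of its counts, 1 gave every normalized value and was used. Columns of a group were averaged. Folds used edgeR 4.0.16 TMM scaling after filterByExpr at a minimum count of 10 and a minimum total of 15. This filter applies the minimum count as CPM, so fewer counts suffice in the shallower EB columns than in the ESC columns. Entries at low counts were therefore measured more readily where their EB level was the higher, which bears on the shares called higher and lower. Their intervals are exact conditional binomial ones. A count of 0 was set to 3 where a fold was given. DESeq2 1.42.0 size factors were an alternative. The edgeR test was not run, since the columns differed by less than counting error and the members were chosen on this contrast. Simulated counts with known folds were also put through the scaling. The outcome is not reported here, and no result above rests on it.

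Of 626 entries, 611 were matched to GENCODE M21 (GRCm38) and 515 to RefSeq sequences. The members, lists and rules were chosen with earlier results of these data known. Named entries were the members, their 6 nearest in level, their 2 neighbours on each side in rank, all measured neural entries, up to 4 of the most abundant of each other list, entries sharing a seed, and the 3 most unlike and 3 most abundant copy pairs. Calculations used R 4.3.3, Python 3.11.15, pandas 2.3.3, scipy 1.17.1 and matplotlib 3.10.9.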

Additional observations from a re-analysis of the deposited data

How the results depend on the processing

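The log2 folds of mir-218-1 and mir-218-2 kept their direction and stayed within their counting intervals under all alternatives tried, at 2.40 to 2.88. Within replicate numbers 1 and 2, a replicate block without a test, they were 2.59 and 2.51 for mir-218-1 and 2.66 and 2.53 for mir-218-2. No paired analysis was possible because the columns of each group count as 1 sample. With copies summed the log2 fold of miR-218 was 2.78. Without the miR-290 to miR-295 and miR-302 cluster entries the shares of mir-218-1 and mir-218-2 were 0.0329% and 0.0318% in ESCs and 0.263% and 0.261% in EBs. With copies summed, miR-218 ranked 50 in EBs, and 1 neural microRNA was higher and 6 lower. Of the motor neuron ones 2 were higher and 6 lower, and of those within host genes 45 and 40. Over all 302 that passed the filter with copies summed, 100 were higher and 87 lower. A 4-fold threshold gave 73 entries higher and 46 lower; the neural list had 0 and 8, the motor neuron list 0 and 6, the heart list 3 lower, and the host-gene list 40 and 17. Without either ESC replicate 0 neural entries were higher, since mir-135a-1 and mir-135a-2 were no longer measured. With no filter 0 motor neuron entries were higher, and 115 entries were higher and 134 lower over the whole table. Of 187 alternative values, 165 stayed close to the reported ones, 22 moved and 0 reversed. The EB depth, with a floor of 21.6 CPM, limits what can be said of low neural and muscle entries.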

Other observations

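MicroRNAs that lie within a protein-coding gene on its strand, as miR-218 does, went both ways. Besides miR-218, 175 such entries were measured, and in the EB library 70 rose and 44 fell by 2-fold or more, at a median log2 fold of 0.36, beside 33.5% higher and 30.2% lower over all measured entries. Of these entries many lie in 1 gene, Sfmbt2, which holds 71 entries of the table. Without them 109 measured entries were left, of which 18 rose and 44 fell as far, at a median of -0.52. The values over all measured entries, with a median of 0.07, still include the Sfmbt2 entries. They are therefore not a like background for the 109, and a background without Sfmbt2 was not computed. The most abundant were mir-16-2 in Smc4, 3.34-fold lower (3.17 to 3.53), mir-708 in Tenm4, 2.58-fold lower (2.40 to 2.77), mir-21a in Vmp1, 2.32-fold lower (2.15 to 2.49), and mir-103-2 in Pank2, 1.83-fold lower (1.70 to 1.97). The levels of the hosts were not measured.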
